A study of Rattus norvegicus with 4 samples.

Results

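Iron-sulfur cluster assembly was followed through 9 genes of the 32545 in the deposited count table: Nfs1, Lyrm4, Iscu, Hscb and Glrx5, which act early in the mitochondrial pathway, Isca1, Isca2 and Nfu1, which act late in it, and Ciao1, which acts in the cytosol. They were taken by gene symbol, and each symbol matched 1 entry. Nfs1 was chosen because its counts fell steeply in the comparison described here, so its values are given as a description without a test. The other 8 were chosen by function, with earlier results of these data known, and all 9 passed the filter on low counts. The cells were S16, a rat Schwann cell line grown in 6-well plates. One group was transfected with siRNAs against both Nr2f1 and Nr2f2, the genes of COUP-TFI and COUP-TFII, nuclear receptors without an established ligand, and the other with a non-targeting control siRNA (IDT DS NC1). Each group had 2 libraries of polyadenylated RNA, which are named A and B by their column order in the count table. All came from this 1 line, with 1 siRNA per target gene given in the labels and no other treatment.

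Iron-sulfur clusters are inorganic cofactors that carry electrons in the respiratory chain and serve in metabolic enzymes, in DNA polymerases and helicases and in tRNA-modifying enzymes. In mitochondria the cysteine desulfurase NFS1, held by its small partner LYRM4 (ISD11), takes sulfur from cysteine and passes it to the scaffold ISCU, with a ferredoxin supplying electrons. The chaperone HSPA9 and its co-chaperone HSCB then release the cluster to the glutaredoxin GLRX5, and ISCA1, ISCA2, IBA57 and NFU1 make and hand on larger clusters. A sulfur-containing product leaves the mitochondrion and feeds a cytosolic machinery whose targeting complex contains CIAO1.

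Libraries held 25618234 and 43057750 counts with Nr2f1/Nr2f2 siRNA, against 26561522 and 21556011 with control siRNA. Levels are TMM-scaled CPM, counts scaled to library size. Each fold change sets the siRNA group over the control. The quasi-likelihood test of edgeR was run on all 13018 tested genes, with Benjamini-Hochberg adjustment over them. A gene is called when its adjusted p is under 0.05. The labels do not say that libraries came from separate cultures, so p-values measure only how far these libraries vary, and that variation may be technical. Nr2f1 averaged 58.8 ± 3.85 CPM with its siRNA and 216.9 ± 12.2 CPM in control (SD, n = 2 each), and Nr2f2 averaged 70.4 ± 3.22 CPM with its siRNA and 288.8 ± 9.78 CPM in control. Schwann cell markers were abundant, with summed levels of 15740 to 16420 CPM with Nr2f1/Nr2f2 siRNA and 14080 to 14580 CPM in control over the 9 matched genes. Of the markers of other cells, the collagen genes of the fibroblast list were also abundant (the list summed to 13840 to 14260 CPM against 14530 to 14700 CPM), whereas the fibroblast markers Dcn and Lum had no count in any library, and the 6 macrophage markers summed to at most 1.83 CPM in any library. The neuron list summed to 88.7 to 106.6 CPM with Nr2f1/Nr2f2 siRNA and 76.7 to 80.6 CPM in control, nearly all of it Tubb3, and the endothelial list to 3.68 to 4.48 CPM and 5.26 to 6.10 CPM. Their part in the results was not tested.

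Promoter windows are shown first for the 4 members whose windows held a motif of the receptors lowered here or of factors known for control of mitochondrial genes. RefSeq windows of the GRCr8 build, from 250 bases before to 50 after the start site, were matched by symbol for 8 of the 9 members. The member without a window was Nfs1, so its promoter was not searched for these motifs. Capitals mark matches, on either strand, to the nuclear receptor half-site AGGTCA, which COUP-TFs can bind, to the core of the element of nuclear respiratory factor 1 (NRF-1), and to CCGGAAG, the core read by GABPA and other ETS factors. No match of one motif overlapped a match of another.
Iscu: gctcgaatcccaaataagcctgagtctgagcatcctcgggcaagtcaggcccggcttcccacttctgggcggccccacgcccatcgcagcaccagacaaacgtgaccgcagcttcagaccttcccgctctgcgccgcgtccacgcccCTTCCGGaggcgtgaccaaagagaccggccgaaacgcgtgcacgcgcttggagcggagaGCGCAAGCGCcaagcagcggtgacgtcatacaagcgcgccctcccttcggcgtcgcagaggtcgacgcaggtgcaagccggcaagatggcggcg
Nfu1: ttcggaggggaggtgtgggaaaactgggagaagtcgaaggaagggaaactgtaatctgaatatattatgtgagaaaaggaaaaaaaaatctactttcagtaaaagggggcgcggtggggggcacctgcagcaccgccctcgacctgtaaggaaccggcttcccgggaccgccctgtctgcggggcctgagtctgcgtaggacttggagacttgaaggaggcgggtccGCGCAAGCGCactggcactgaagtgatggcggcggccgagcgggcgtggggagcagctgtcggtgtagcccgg
Isca1: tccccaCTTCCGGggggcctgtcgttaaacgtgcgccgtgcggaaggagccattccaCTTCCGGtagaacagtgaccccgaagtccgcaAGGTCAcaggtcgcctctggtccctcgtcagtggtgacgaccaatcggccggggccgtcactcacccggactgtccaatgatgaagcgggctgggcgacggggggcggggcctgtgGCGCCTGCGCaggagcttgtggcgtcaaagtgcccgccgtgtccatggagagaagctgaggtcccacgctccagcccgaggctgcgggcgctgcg
Lyrm4: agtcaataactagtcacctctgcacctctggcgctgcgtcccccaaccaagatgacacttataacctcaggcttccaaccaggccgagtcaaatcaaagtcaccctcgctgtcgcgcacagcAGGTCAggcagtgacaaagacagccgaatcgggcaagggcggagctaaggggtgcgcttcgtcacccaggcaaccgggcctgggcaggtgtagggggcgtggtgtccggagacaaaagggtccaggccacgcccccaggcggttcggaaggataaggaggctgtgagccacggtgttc

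The Iscu window lies on the minus strand of chromosome 12 (chr12:48518647-48518946), that of Nfu1 on the plus strand of chromosome 4 (chr4:121016156-121016455), that of Isca1 on the plus strand of chromosome 17 (chr17:4910566-4910865) and that of Lyrm4 on the plus strand of chromosome 17 (chr17:28951662-28951961). AGGTCA was present in 2 of the 8 members' windows, Isca1 at -161 and Lyrm4 at -128 from the start site, and in 16.2% of all 33469 windows of the same length. The NRF-1 core was present in 3 of 8, Iscu at -44, Isca1 at -45 and Nfu1 at -23, and in 4.26% of all windows. CCGGAAG was present in 2 of 8, Iscu and Isca1, and in 8.75% of all windows. These are matches of letters in a window, and binding was not measured.

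Nfs1, the gene of the cysteine desulfurase, had 0.498 and 1.74 CPM in libraries A and B of the siRNA group, against 9.55 and 11.8 CPM in control libraries A and B. Both siRNA libraries were thus below both controls, and they differed from each other by a factor of 3.49. The fitted log2 fold change was -3.07 (SE 0.33), about 0.119 of the control level, from 13 and 76 counts with Nr2f1/Nr2f2 siRNA and 247 and 251 counts in control. It was -4.40 without siRNA library B. The authors' deposited table gives -3.24 for the same gene.

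The count table holds another entry described as a mitochondrial-like cysteine desulfurase, LOC100911034, and it did not follow the Nfs1 entry. LOC100911034 had 334 and 49 counts in siRNA libraries A and B, against 317 and 12 counts in control libraries A and B. Library A of each group was high and library B low, so the groups overlapped, and the column names of both A libraries carry the number 3, the meaning of which was not given in the sources used here. Its fitted log2 fold change was -0.19 (SE 2.01), with an adjusted p of 0.965 from edgeR. Nfs1 (ENSRNOG00000045686) spans 151665814 to 151688149 and LOC100911034 (ENSRNOG00000019736) spans 152200936 to 152222647 on the minus strand of chromosome 3, in the coordinates of the deposited files, of a build not named there. Both are annotated as protein-coding and as members of the same aminotransferase family. Among the other 8 members, a search of names and descriptions found no second entry of the same gene.

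The share of the pair's reads that fell on the Nfs1 entry differed widely between libraries of one group. It was 3.75% (95% exact binomial interval 2.01 to 6.32%) in siRNA library A and 60.8% (51.7 to 69.4%) in siRNA library B. In the control group it was 43.8% (39.7 to 48.0%) in library A and 95.4% (92.2 to 97.6%) in library B. These intervals cover counting error only and not variation between libraries, and the reads carried no molecular identifiers. In each group the share was lower in library A than in library B.

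Summed over both entries, the cysteine desulfurase reads came to 13.3 and 2.86 CPM in siRNA libraries A and B, against 21.8 and 12.3 CPM in control libraries A and B. The groups overlapped, because siRNA library A lay above control library B. The means were 8.08 ± 7.38 CPM with Nr2f1/Nr2f2 siRNA and 17.1 ± 6.69 CPM in control (SD, n = 2 each). The fitted log2 fold change of the sum was -1.25 (SE 1.03), against -3.07 for the Nfs1 entry alone. How reads that match both entries were counted was not given in the sources used here. The value of either entry is therefore uncertain, and the part of this in the fall of Nfs1 was not tested.

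**Figure D1:**
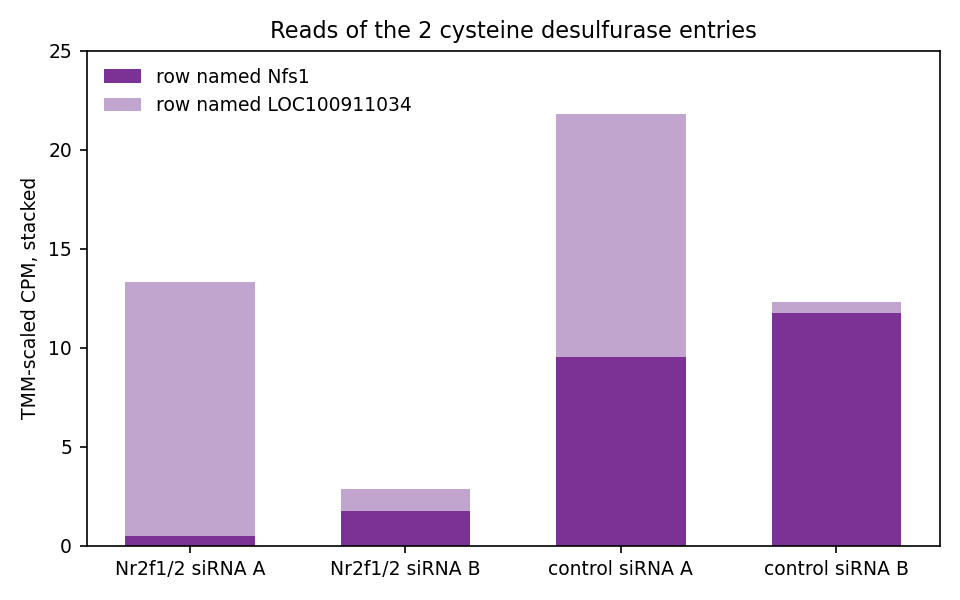
TMM-scaled CPM of the Nfs1 entry (dark) and the LOC100911034 entry (light), stacked, in each of the 4 libraries. The Nfs1 part stands at 0.498 and 1.74 CPM with Nr2f1/Nr2f2 siRNA and at 9.55 and 11.8 CPM in the controls, while the stacked totals of siRNA library A (13.3) and control library B (12.3) cross.

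The doubling was not limited to Nfs1. In the files' coordinates 6 neighbouring entries, for Spag4, Cpne1, Rbm12, Nfs1, Romo1 and Rbm39, occur in the same order and on the same strands in 2 blocks on chromosome 3, with starts 534.1 to 535.2 kb apart. In the RefSeq table of GRCr8 each of these 6 symbols has 1 entry, and Nfs1 lies between Rbm12 and Romo1 there too, with LOC108350619 between Rbm12 and Nfs1. Only the symbols were counted there, and copies under LOC names were not searched. The count therefore cannot show whether that build holds a second block. The pairs other than that of Nfs1 were singled out after their values were seen. Reads fell almost wholly on one of the entries for Cpne1, which encodes a calcium-dependent membrane-binding protein, with 1 count over all libraries on the entry named Cpne1 and 3129 on LOC100910990. The entry for the mitochondrial protein ROMO1 next to Nfs1, LOC100910944, had 110 counts and its partner none. Rbm12, which encodes an RNA-binding protein, had 1 count in all on the entry beside Nfs1. Its other entry had 7.78 and 1.92 CPM in siRNA libraries A and B, against 1.51 and 1.13 CPM in control libraries A and B. In this entry both siRNA libraries were above both controls, as for 30.1% of all tested genes. The log2 fold change was 1.69 (SE 1.26, adjusted p = 0.494) and did not pass.

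For Rbm39, the gene of a splicing factor, the total over both entries varied between libraries, with 13.7 and 97.9 CPM in siRNA libraries A and B, against 102.7 and 19.2 CPM in control libraries A and B. The entry beside Nfs1 held 91.6 and 97.5% of these reads in the siRNA libraries, against 98.7 and 59.2% in the controls. That entry, LOC100910882, had 12.6 and 95.5 CPM in siRNA libraries A and B, against 101.3 and 11.4 CPM in control libraries A and B. Here siRNA library B and control library A were the high ones, so the groups overlapped fully and the pattern across libraries was not that of LOC100911034. Such gaps between libraries of 1 group were rare. Among 9987 tested genes with a mean of at least 5 CPM, the median ratio between libraries was 1.07 with Nr2f1/Nr2f2 siRNA and 1.08 in control. LOC100911034 reached 11.4 with Nr2f1/Nr2f2 siRNA, a ratio matched or passed by 11 genes, itself included, and 21.8 in control, matched or passed by 4. LOC100910882 reached 7.60 and 8.93, matched or passed by 14 and 13 genes. The Nfs1 entry itself reached 3.49 with Nr2f1/Nr2f2 siRNA, and 1.23 in control, matched or passed by 1078. Its siRNA ratio comes from 13 and 76 counts. Its mean reached 5 CPM only through the controls, so its siRNA ratio is not ranked among these genes.

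**Figure D2:**
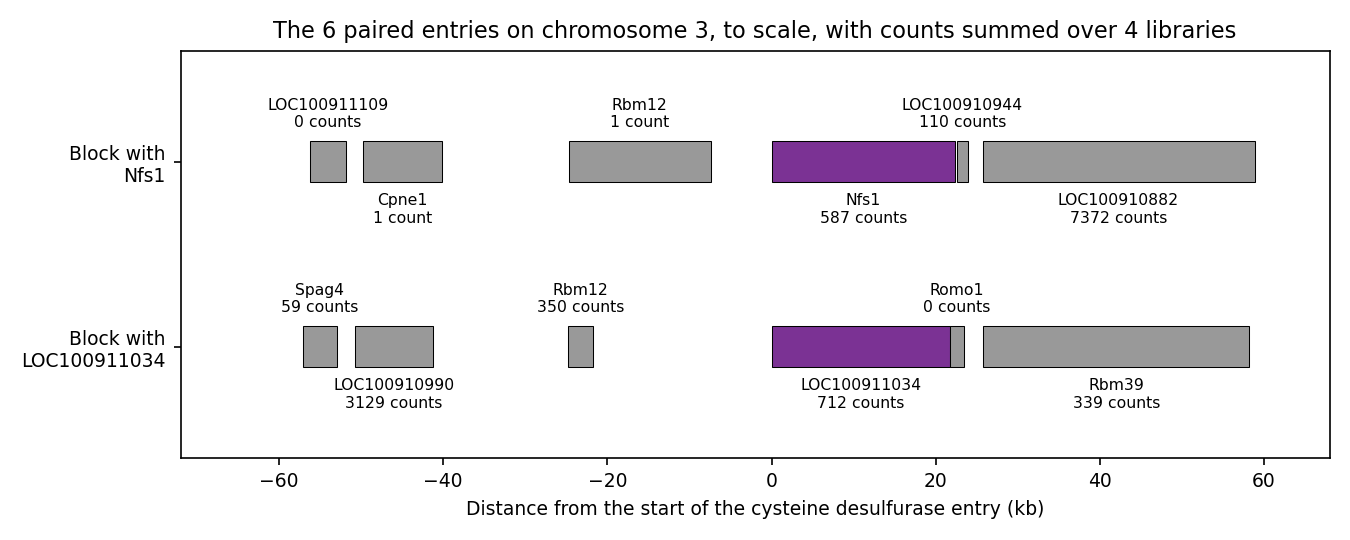
Map, to scale, of the 6 paired entries, with distance in kb from the start of the cysteine desulfurase entry of each block and counts summed over the 4 libraries. The same order of genes recurs in both blocks, and the entry that holds the reads differs by gene, for example 587 counts on Nfs1 and 712 on LOC100911034, and 7372 on LOC100910882 and 339 on Rbm39.

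Outside the doubled block the nearest gene with reads was Ergic3, whose product recycles between the endoplasmic reticulum and the Golgi, 102.5 kb to the left. Ergic3 had 130.8 and 120.0 CPM with Nr2f1/Nr2f2 siRNA, against 122.5 and 137.5 CPM in control, and the groups overlapped. Over the 4 libraries, the protein-coding genes closest to the Nfs1 entry in the shape of their log2 CPM were Gsta1, which encodes a glutathione transferase, Tktl1, which encodes a transketolase-like protein, Entpd1, which encodes an extracellular nucleotidase, and AC096370.2. Their Euclidean distances to Nfs1 after centring were 0.57, 0.75, 0.89 and 1.27 on the log2 scale. All 4 had lower levels in both siRNA libraries than in both controls. That follows from their choice by likeness to the Nfs1 entry and is not a separate result. Gsta1 had 0.115 and 0.617 CPM with Nr2f1/Nr2f2 siRNA, against 2.36 and 5.02 CPM in control. Its siRNA values rest on 3 and 27 counts in libraries A and B. Those of Tktl1 rest on 4 and 25 counts, of Entpd1 on 3 and 17, and of AC096370.2 on 45 and 82.

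Of the 8 other members, 3 were called lower with Nr2f1/Nr2f2 siRNA and 5 did not pass, where 18.1% of all tested genes were called, 10.0% lower and 8.05% higher. At an unadjusted edgeR p under 0.05 the same number of members, 3 lower and 0 higher, was found. Of all 13018 tested genes, 4089 reached that level. The DESeq2 Wald test called 1 member lower and 0 higher, beside 1983 genes in all, 1191 of them lower. The members' median log2 fold change was -0.13, against 0.01 for all tested genes. With scaling by library size alone 1 member was called lower, and each of the 3 calls was lost in at least 2 of the 4 fits that left out 1 library. Fewer cells of one kind and less RNA per cell cannot be told apart in bulk samples.

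Iscu, the gene of the scaffold on which the cluster forms, had 41.3 and 36.8 CPM with Nr2f1/Nr2f2 siRNA, against 46.5 and 56.6 CPM in control. Both siRNA libraries lay below both controls, as for 28.5% of all tested genes. Iscu fell to 0.756 of the control level (log2 fold change -0.40, SE 0.11, adjusted p = 0.0237), on chromosome 12 from 48621454 to 48627297 in the files' coordinates. The adjusted p was 0.155 without siRNA library B and 0.175 without control library B. It was the member with the highest level per length in both groups, at 42.3 ± 3.41 CPM per kb of gene length with Nr2f1/Nr2f2 siRNA and 55.8 ± 7.70 CPM per kb in control (SD, n = 2 each).

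Hscb, the gene of the co-chaperone that frees the cluster from the scaffold, had 7.05 and 6.30 CPM with Nr2f1/Nr2f2 siRNA, against 8.97 and 10.5 CPM in control. It fell to 0.683 of the control level, with a log2 fold change at -0.55 (SE 0.17, adjusted p = 0.0393). Nfu1, whose product delivers clusters to lipoyl synthase and respiratory complexes, had 29.2 and 28.7 CPM with Nr2f1/Nr2f2 siRNA, against 36.3 and 36.5 CPM in control. It fell to 0.795 of the control level, with a log2 fold change at -0.33 (SE 0.10, adjusted p = 0.0315). In both genes the groups did not overlap, which held in the same direction for 28.5% of all tested genes. Both calls were lost with each library left out in turn, with the DESeq2 Wald test and with scaling by library size alone, with an adjusted p of 0.0552 to 0.236 for Hscb and of 0.0599 to 0.165 for Nfu1 in these fits. Hscb was called lower in the other fits, and its log2 fold change stayed between -0.67 and -0.45 in all fits run.

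The other early members gave no call. Lyrm4, whose product holds the desulfurase in shape, had 10.2 and 9.85 CPM with Nr2f1/Nr2f2 siRNA, against 9.70 and 12.3 CPM in control (log2 fold change -0.13, SE 0.16, adjusted p = 0.639). Glrx5, whose product takes up the newly made cluster, had 41.0 and 31.4 CPM with Nr2f1/Nr2f2 siRNA, against 31.9 and 37.9 CPM in control (log2 fold change 0.04, SE 0.14, adjusted p = 0.868). The groups overlapped in both genes. Leaving out single libraries moved Glrx5 between -0.15 and 0.23 and Lyrm4 between -0.30 and 0.037 on the log2 scale, so no direction can be given for either.

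The late assembly genes Isca1 and Isca2, whose products act together on larger clusters, did not pass. Isca1 had 41.3 and 44.4 CPM with Nr2f1/Nr2f2 siRNA, against 46.3 and 48.2 CPM in control (log2 fold change -0.14, SE 0.09, adjusted p = 0.339). Its siRNA libraries were both below both controls, as for 28.5% of all tested genes. Isca2 had 16.9 and 14.1 CPM with Nr2f1/Nr2f2 siRNA, against 14.3 and 14.3 CPM in control (0.09, SE 0.14, adjusted p = 0.686), and was at -0.03 without siRNA library A, so no direction can be given for it. Ciao1, the cytosolic targeting gene, had 35.6 and 35.9 CPM with Nr2f1/Nr2f2 siRNA, against 32.4 and 32.4 CPM in control (0.14, SE 0.10, adjusted p = 0.333). Both siRNA libraries were above both controls for Ciao1, as for 30.1% of all tested genes. Ciao1 overlaps Tmem127 on the other strand, and the strand setting of the counting was not given in the sources used here.

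Per kb of gene length, levels in the control libraries ran from Iscu (55.8 CPM per kb) through Nfu1 (32.8), Isca1 (25.5), Ciao1 (19.8), Isca2 (17.9), Glrx5 (16.3), Lyrm4 (10.3) and Hscb (10.2) to the Nfs1 entry (5.31). The order of the means was the same in the siRNA libraries, where the Nfs1 entry was at 0.556 CPM per kb. Neighbours in this order overlapped between libraries for Lyrm4 and Hscb in control and for Isca2 and Glrx5 with Nr2f1/Nr2f2 siRNA. The ratio between libraries of 1 group stayed at or below 1.31 for the 8 members other than Nfs1.

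**Figure D3:**
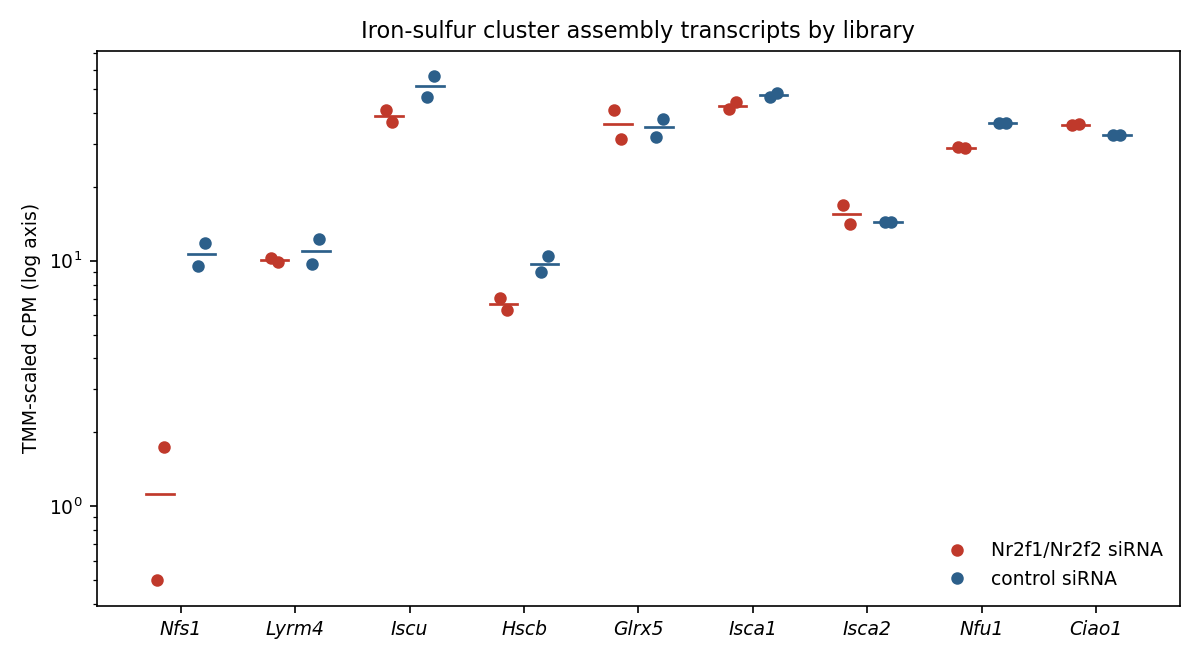
TMM-scaled CPM (log axis) of the 9 genes, 1 point per library and a bar at the mean, Nr2f1/Nr2f2 siRNA left and control siRNA right. The Nfs1 entry stands apart at 0.498 and 1.74 CPM against 9.55 and 11.8 CPM, whereas Iscu, Hscb and Nfu1 are lower by smaller steps.

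**Figure D4:**
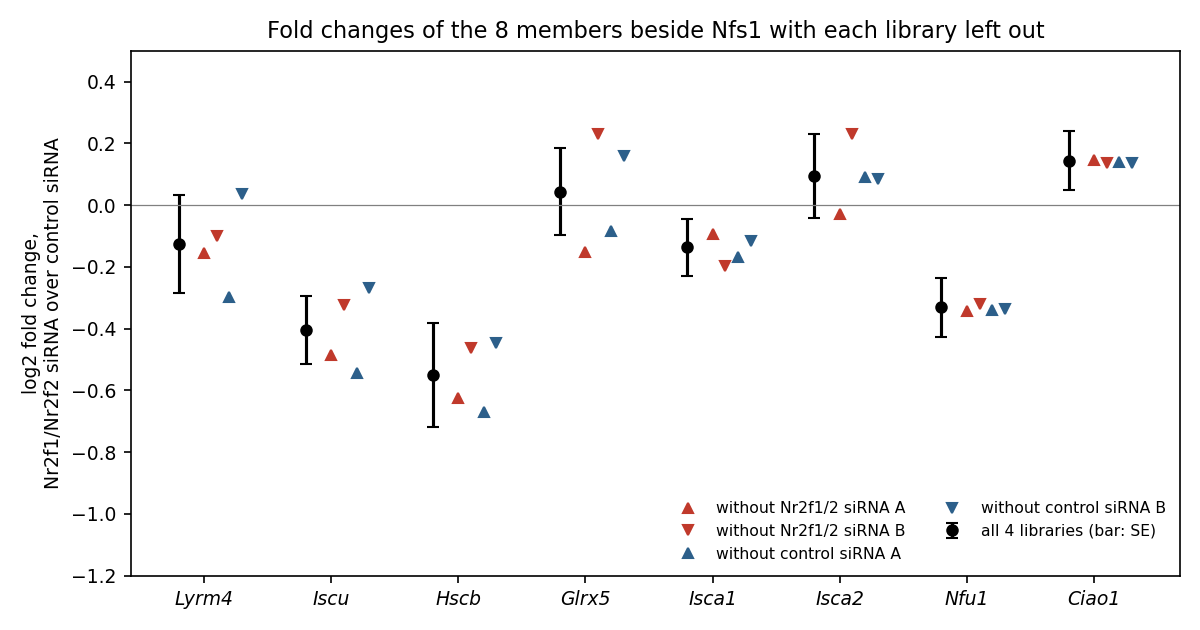
Log2 fold changes of the 8 members other than Nfs1 with all 4 libraries (black, bar for the SE) and with each library left out (triangles). Nfu1 and Ciao1 hardly move, whereas Glrx5, Isca2 and Lyrm4 cross 0.

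The rest of the pathway was read from 9 lists, set up by role with earlier results of these data known. They hold 87 genes beside the members. Of these, 84 were matched by symbol and 81 tested, with 5 called higher, 15 lower and 61 not past the threshold, where 8.05% of all tested genes were called higher and 10.0% lower, and a median log2 fold change of -0.07. With scaling by library size alone 6 were higher and 8 lower. Of the 20 called genes, 6 kept their call with every library left out in turn. These were Urm1, Tst, Ndufs8, Pold1, Pole and Prim2.

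Among the 10 tested early assembly genes other than Nfs1, 3 fell, Iscu and Hscb among them, and 7 did not pass. Over all tested genes, 10.0% were called lower. The ferredoxin gene Fdx2, listed as Fdx1l in the files, was at -0.11 (SE 0.12), and the chaperone gene Hspa9, the most abundant of the list, at -0.12 (SE 0.07), and neither passed.

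Late assembly, iron supply and export, and cytosolic assembly had 1 called gene each, beside 10.0% of all tested genes called lower, and nothing is read from these single calls. Of 7 late assembly genes 1 fell, Nfu1. Of 4 genes for mitochondrial iron supply and export 1 fell, Slc25a28, which encodes an iron importer of the inner membrane (-0.40, SE 0.12, adjusted p = 0.0371). Of 10 tested cytosolic assembly genes 1 fell, Ciapin1, whose product passes electrons to the cytosolic machinery (-0.30, SE 0.09, adjusted p = 0.0393). The calls of Slc25a28 and Ciapin1 were lost with any library left out, with scaling by library size alone and with the DESeq2 Wald test. Mms19, of the targeting complex that contains CIAO1, was at 0.00 (SE 0.10) and did not pass.

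Of 8 tested genes that carry sulfur onwards, 3 rose and 5 did not pass, where 8.05% of all tested genes were called higher. The median log2 fold change of the list was 0.21, against 0.01 for all tested genes. Urm1, the gene of a ubiquitin-like sulfur carrier used in tRNA thiolation, had 67.8 and 61.8 CPM with Nr2f1/Nr2f2 siRNA, against 38.8 and 44.3 CPM in control. The log2 fold change of Urm1 was 0.64 (SE 0.10, adjusted p = 0.000844). Tst, the gene of the mitochondrial sulfurtransferase rhodanese, had 34.3 and 32.2 CPM with Nr2f1/Nr2f2 siRNA, against 17.2 and 21.1 CPM in control. Tst rose by 0.80 (SE 0.12, adjusted p = 0.000725). Both genes were called higher in all of the fits run. Mpst, the gene of mercaptopyruvate sulfurtransferase, rose by 0.33 (SE 0.09, adjusted p = 0.0240), a call lost without siRNA library A, siRNA library B or control library A. Mocs3, whose product receives sulfur from NFS1 in human cells and passes it to URM1, was at 0.09 (SE 0.15) and did not pass.

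Genes of proteins that carry iron-sulfur clusters formed the next lists. Of 15 mitochondrial clients 3 fell and 12 did not pass, where 10.0% of all tested genes were called lower. Ndufs8, a subunit gene of respiratory complex I, had 41.3 and 40.9 CPM with Nr2f1/Nr2f2 siRNA, against 54.3 and 62.7 CPM in control (-0.51, SE 0.10, adjusted p = 0.00330). It overlaps Unc93b1 on the other strand. Mocs1, of molybdenum cofactor synthesis (-0.42, SE 0.12, adjusted p = 0.0280), and Cisd1, of the outer membrane (-0.32, SE 0.10, adjusted p = 0.0383), fell too, with calls lost in several fits.

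Of 19 tested cytosolic and nuclear clients 7 fell and 12 did not pass, where 10.0% of all tested genes were called lower. The median log2 fold change of the list was -0.21, against 0.01 for all tested genes. The largest falls were in genes of DNA replication enzymes. Pole, the catalytic subunit gene of DNA polymerase epsilon, had 39.2 and 38.6 CPM with Nr2f1/Nr2f2 siRNA, against 59.7 and 56.4 CPM in control (-0.58, SE 0.09, adjusted p = 0.000915). Prim2, of the primase (-0.58, SE 0.11, adjusted p = 0.00348), and Pold1, of DNA polymerase delta (-0.45, SE 0.09, adjusted p = 0.00356), fell as well. Ppat, of purine synthesis, fell too (-0.37, SE 0.08, adjusted p = 0.00862), a call lost without siRNA library B, and it overlaps Paics on the other strand. Ddx11 and Brip1, helicase genes, and Elp3, of tRNA modification, were the other called genes, at -0.43, -0.42 and -0.30. Of the 7 genes 3 kept their call with every library left out.

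The lipoylation list gave no call in 7 tested genes with edgeR, DESeq2 or limma-voom. At an unadjusted edgeR p under 0.05, 2 were lower and 0 higher, where 4089 of all 13018 tested genes reached that level. Its most abundant genes were Dlst (-0.17, SE 0.07, adjusted p = 0.139) and Gcsh (-0.24, SE 0.09, adjusted p = 0.0748), whose products carry the lipoyl group. Both had lower values in both siRNA libraries than in both controls, as had 28.5% of all tested genes. Of 9 tested genes of cellular iron, 2 rose, 2 fell and 5 did not pass. Over all tested genes, 8.05% were called higher and 10.0% lower. Ireb2, which encodes the iron regulatory protein that carries no cluster, had 75.6 and 82.7 CPM with Nr2f1/Nr2f2 siRNA, against 66.6 and 60.2 CPM in control (0.32, SE 0.09, adjusted p = 0.0268). Steap3, an endosomal iron reductase gene, rose by 0.60 (SE 0.16, adjusted p = 0.0227), and Hmox1, of heme breakdown (-0.57, SE 0.16, adjusted p = 0.0388), and Ncoa4, of ferritin breakdown (-0.25, SE 0.08, adjusted p = 0.0482), fell. Each of these 4 calls was lost in at least 2 of the 4 fits that left out 1 library. Tfrc, the transferrin receptor gene that iron regulatory proteins stabilise, had 138.5 and 144.2 CPM with Nr2f1/Nr2f2 siRNA, against 153.2 and 136.6 CPM in control (-0.04, SE 0.08, adjusted p = 0.808), and the groups overlapped.

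**Figure D5:**
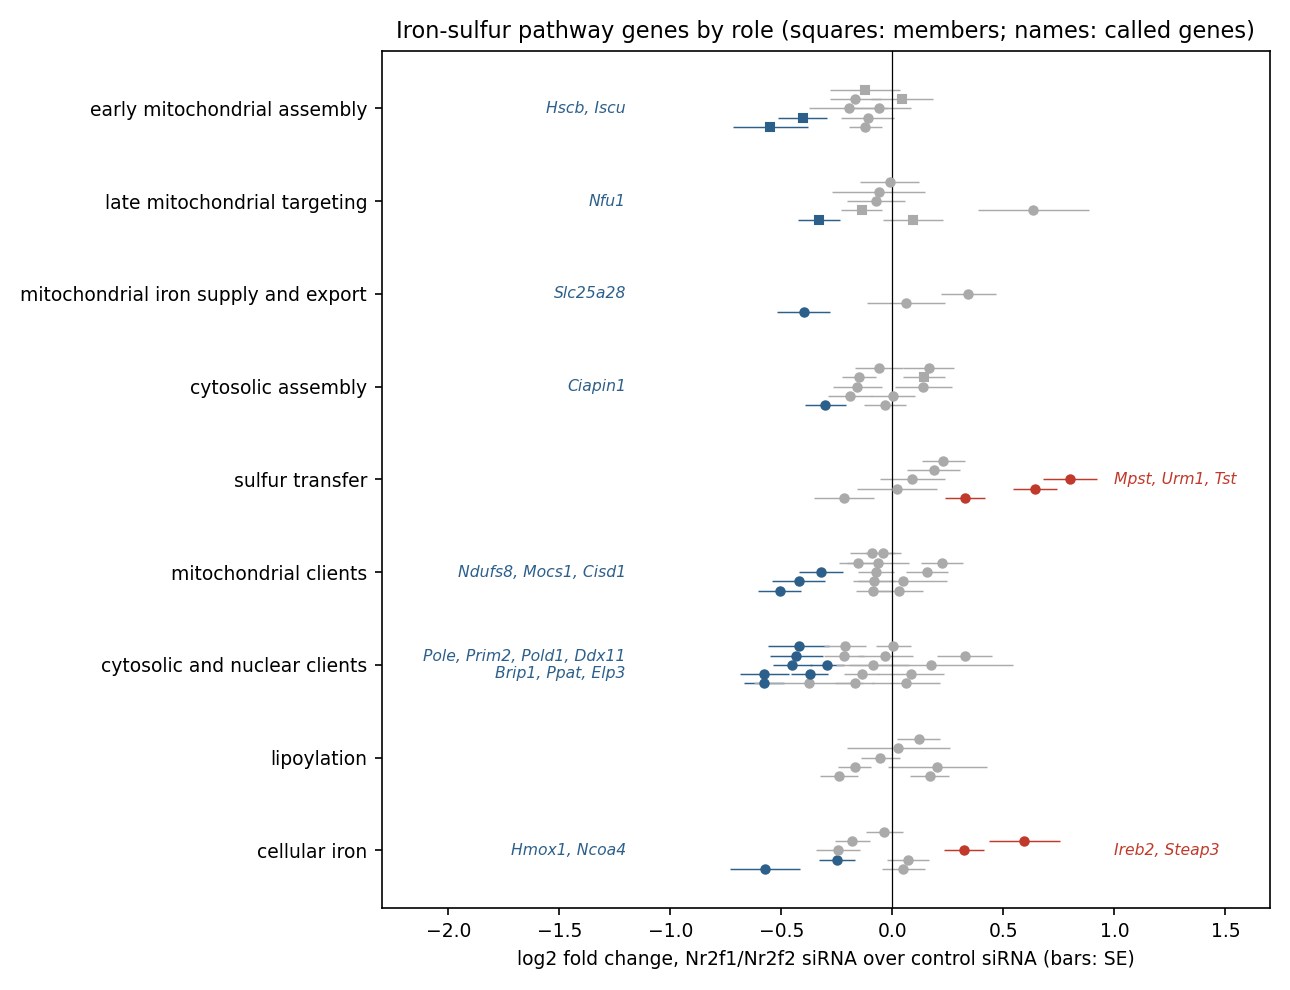
Log2 fold changes (bars: SE) of tested genes of the 9 role lists without Nfs1 and the genes not reported here, with squares for members, blue for called lower, red for called higher and grey for not called; the called genes shown are named in each list. The 3 called genes of the sulfur transfer list lie between 0.33 and 0.80, and the 7 called cytosolic and nuclear clients between -0.58 and -0.30.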

How the data were processed

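Polyadenylated RNA was sequenced on an Illumina instrument, per the labels' protocols. The deposited table gives read counts per rat Ensembl gene and a gene length in bases. HISAT2, featureCounts 1.5.0-p3 and DESeq2 1.20.0 are named in the submitters' processing notes without roles. The build, the annotation, the handling of reads that match several places and the strand setting were not given in the sources used here. The authors' deposited comparison table supplied the log2 fold change quoted for Nfs1; its p-values, deposited by the authors, were read but are not quoted, and 14 further per-library and mean columns were not used. The columns name the group and not the replicate number of the titles, so groups were mapped by column name.

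Counts were analysed in R 4.3.3 with edgeR 4.0.16 (filterByExpr, TMM, robust quasi-likelihood fit of the group), checked on simulated counts. SEs come from the F statistic. Library-size scaling, DESeq2 size factors, DESeq2 1.42.0, limma-voom (limma 3.58.1), other filters and leaving out each library were run as alternatives. Summing Nfs1 with LOC100911034 and the earlier form of the quasi-likelihood test were added after seeing the data. In the shallowest library 3 counts equal 0.139 CPM and in the deepest 0.0697 CPM, before TMM. Members and lists were chosen with earlier results of these data known. Named genes were the members, up to 4 called genes per list by smallest adjusted p (the 2 most abundant where none was called), the 3 nearest genes with reads on each side of Nfs1, overlapping genes and the 4 genes most like Nfs1 (log2 CPM with a prior count of 2); others named were chosen after their values were seen. In the lists Ndufab1, Dna2 and Slc40a1 were not matched by symbol, and Bola2, Xdh and Fth1 did not pass the filter. The entry matched for Bola2 is annotated as a processed pseudogene, and Fth1 had 0 counts in every library. Whether reads of Bola2 or Fth1 were lost in counting was not tested, so low expression is not read from these entries. Some genes of the lists are counted in the totals, but their own values are not reported here.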

Additional observations from a re-analysis of the deposited data

How the results depend on the processing

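With each library left out in turn, 1353 to 1813 genes were called over the whole table, against 2350 with all 4, and 7 to 12 of the wider pathway genes, against 20. Of the 8 members other than Nfs1, 0 to 1 were called in these fits against 3, with 2 to 3 at an unadjusted p under 0.05. Scaling by library size alone called 1 member, as did the DESeq2 Wald test with 1; it turned the split of all calls to 1381 higher and 1009 lower, against 1048 higher and 1302 lower with TMM. Left-out libraries moved Isca2 between -0.03 and 0.23, Lyrm4 between -0.30 and 0.037 and Glrx5 between -0.15 and 0.23 on the log2 scale; the signs of the other members were the same in all 12 alternatives. The log2 fold change of Nfs1 ranged from -4.40 to -2.61 with left-out libraries and was -1.25 with LOC100911034 summed in. The earlier form of the quasi-likelihood test called 2501 genes and the same number of members, 3. The cause of these shifts was not tested. No paired analysis was possible because the deposited columns do not carry the replicate numbers of the labels. With 1 library left in a group, that library is assumed to vary like the other group. Hscb and the Nfs1 entry rest on the fewest counts among the members, 184 to 276 and 13 to 251 per library.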
